A study of Mus musculus with 27 samples.

Results

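Tcf7l2, Lef1, Rora, Rorb, Prox1 and Gbx2, which encode transcription factors of the thalamus or its neighbours, were followed across the brain regions and the retina of the mouse. They were chosen by name and are 6 of the 30735 genes in the deposited table, with the values of all transcripts of a gene added together. The brain libraries came from wild type C57Bl/6 mice at postnatal day 3 (P3) and fall into superior colliculus (SC, 3 libraries), lateral geniculate nucleus (LGN, 3), pretectal area (PTA, 1) and brain (2), where the protocol describes the last as the pooled sections left after the 3 retinorecipient areas were taken and the tissue entry reads whole brain. It is called the remaining brain here. The regions were found by cholera toxin B injected into both eyes of the pups and were cut out by hand, so a piece can hold tissue next to the nucleus.

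Retinal libraries were measured in the same study. Mice of strain C57Bl/6 carried alkaline phosphatase (AP) at the Brn3a or the Brn3b locus, opposite an intact allele (Brn3aAP/WT or Brn3bAP/WT, called HET) or a null allele (Brn3aAP/KO or Brn3bAP/KO, called KO), and every retinal group, the HET groups included, carries the AP allele. No wild type retina enters these comparisons. Cells bound by beads with an antibody to AP gave the AP-positive fraction, the retinal ganglion cells by label, and the unbound cells gave the supernatant (SN). At P3 there were 2 AP-positive libraries for each of the 4 genotypes and 1 SN library for each. At embryonic day 15 (E15) there were 2 AP-positive libraries each for Brn3b HET and KO and 1 SN library for each. Brain was read paired-end at 125 bases and retina single-end at 76 bases on another instrument, so the levels of brain and retina stand side by side here without a test.

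As background, TCF and LEF proteins bind DNA through a high mobility group box and act with β-catenin, the effector of canonical Wnt signalling. Tcf7l2 is a marker of postmitotic thalamic, habenular and pretectal neurons, and Lef1 is its close relative. Rora and Rorb encode orphan nuclear receptors: Rora is known for relay neurons of the thalamus and for Purkinje cells of the cerebellum, and Rorb for cortical layer neurons, the superior colliculus and retinal interneurons and photoreceptors. Gbx2 encodes a homeodomain factor of early thalamic neurons, and Prox1, the vertebrate relative of Drosophila prospero, marks parts of the diencephalon, the dentate gyrus and, in retina, horizontal, AII amacrine and bipolar cells.

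Estimated counts per library totalled 10122962 to 13769685 in brain and 28905675 to 37394655 in retina. Levels are given as CPM, the counts scaled to the same library total, and as TPM, which also divides by transcript length, where genes are compared with each other. Some region markers followed the labels. Pax7, a tectal gene, measured 130 to 146 CPM across SC libraries and 0.389 to 1.4 CPM across LGN libraries. Ntng1, a gene of thalamic relay neurons, was at 247 to 363 CPM in LGN against 69.9 to 113 CPM in SC. The cortical gene Neurod6 was at 120 and 121 CPM in the remaining brain and at no more than 8.23 CPM in any SC or LGN library. Between LGN and SC, none of 9 endothelial, none of 8 microglial, 1 of 7 astrocyte and 1 of 7 habenular markers passed. Of 9 markers of the midbrain tectum, 6 passed, all lower in LGN. Of 9 cortical and hippocampal markers, 2 were higher and 3 lower in LGN, and of 9 cerebellar markers 2 were lower. Of 13 oligodendrocyte-lineage genes 6 were higher, and of 10 prethalamic and ventral LGN markers 8 were higher and 1 lower. Between SC and the remaining brain, 4 of the 9 tectal markers were higher in SC and 2 lower. The genotype entry of 1 library (Brn3a KO, AP-positive, replicate 2) names Brn3b, unlike its title. Pou4f1, the gene for Brn3a, was at 11 to 16.7 CPM in both libraries titled Brn3a KO against 444 to 486 CPM in Brn3a HET, and Pou4f2 was at 268 to 391 CPM in them, so the title was followed. The source name, another label, gives Brn3a for all 12 libraries titled Brn3b and postnatal day 3 for all 6 titled E15, and there too the titles were followed. In the AP-positive libraries titled Brn3b KO, Pou4f2 was at 18.6 and 21 CPM at P3 and 63.1 and 65.7 CPM at E15, against 190 and 289 and 224 and 325 CPM in those titled Brn3b HET. Whether replicate libraries came from separate animals is not in the labels, so p-values measure the spread between these libraries. In bulk tissue, fewer cells of a type and less RNA per cell cannot be told apart.

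Tcf7l2 and Rorb are each transcribed from a pair of widely separated starts that the results below compare, so the 250 bases before each start that RefSeq gives are shown, from RefSeq on build GRCm38.p6, 5′ to 3′ on the strand of the gene. Tcf7l2 lies on chromosome 19 (55741810-55933654, plus strand) and Rorb on the same chromosome (18930605-19111196, minus strand). None of the 4 windows overlaps an annotated exon.
Tcf7l2 upstream start, chr19:55741560-55741809: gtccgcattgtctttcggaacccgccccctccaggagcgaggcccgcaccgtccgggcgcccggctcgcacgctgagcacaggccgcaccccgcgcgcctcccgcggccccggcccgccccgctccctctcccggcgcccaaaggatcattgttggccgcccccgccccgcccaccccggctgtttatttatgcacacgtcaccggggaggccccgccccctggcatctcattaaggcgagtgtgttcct
Tcf7l2 internal start, chr19:55895071-55895320: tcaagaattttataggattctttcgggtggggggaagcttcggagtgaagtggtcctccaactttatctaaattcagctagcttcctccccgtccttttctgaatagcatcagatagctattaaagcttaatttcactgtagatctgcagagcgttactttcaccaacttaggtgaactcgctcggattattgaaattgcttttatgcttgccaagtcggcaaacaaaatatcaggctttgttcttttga
Rorb upstream start, chr19:19111197-19111446: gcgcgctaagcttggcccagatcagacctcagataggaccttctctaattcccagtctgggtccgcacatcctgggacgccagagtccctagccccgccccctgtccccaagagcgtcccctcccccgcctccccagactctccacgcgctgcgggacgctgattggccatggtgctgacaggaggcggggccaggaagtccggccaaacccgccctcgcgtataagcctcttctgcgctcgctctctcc
Rorb downstream start, chr19:19001118-19001367: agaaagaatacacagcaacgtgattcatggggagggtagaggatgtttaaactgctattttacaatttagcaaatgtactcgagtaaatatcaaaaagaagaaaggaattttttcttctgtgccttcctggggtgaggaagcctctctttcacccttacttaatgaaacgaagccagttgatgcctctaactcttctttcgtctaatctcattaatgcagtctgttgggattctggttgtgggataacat

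The outer window of each gene is rich in G and C (72.8% for Tcf7l2 and 66.0% for Rorb) and the inner window is not (40.8% and 39.2%). Matches to the TCF/LEF core CTTTGA, the ROR core AGGTCA and the homeobox core TAATTA, searched on both strands, would stand in capitals, and these 4 windows hold none. Among 32851 RefSeq promoter windows of this length, 13.8%, 14.0% and 4.8% hold them, respectively.

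In LGN against SC, 5 of the 6 genes passed the test (adjusted p under 0.05), 4 higher and 1 lower, where 10.2% of 15288 genes tested were called (5.78% higher and 4.41% lower). Tcf7l2, Rora, Prox1 and Gbx2 were higher in LGN, Rorb was higher in SC, and Lef1 did not pass. In LGN against the remaining brain, 3 of 6 passed, against 10.9% of all genes (5.76% higher and 5.17% lower), and all 3 (Tcf7l2, Lef1 and Rora) were higher in LGN. In SC against the remaining brain, 5 of 6 passed, against 6.94% of all genes (3.19% higher and 3.75% lower): Lef1, Rora and Rorb were higher in SC and Prox1 and Gbx2 were lower. These 3 comparisons share libraries, so they are not independent of each other.

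**Figure D1:**
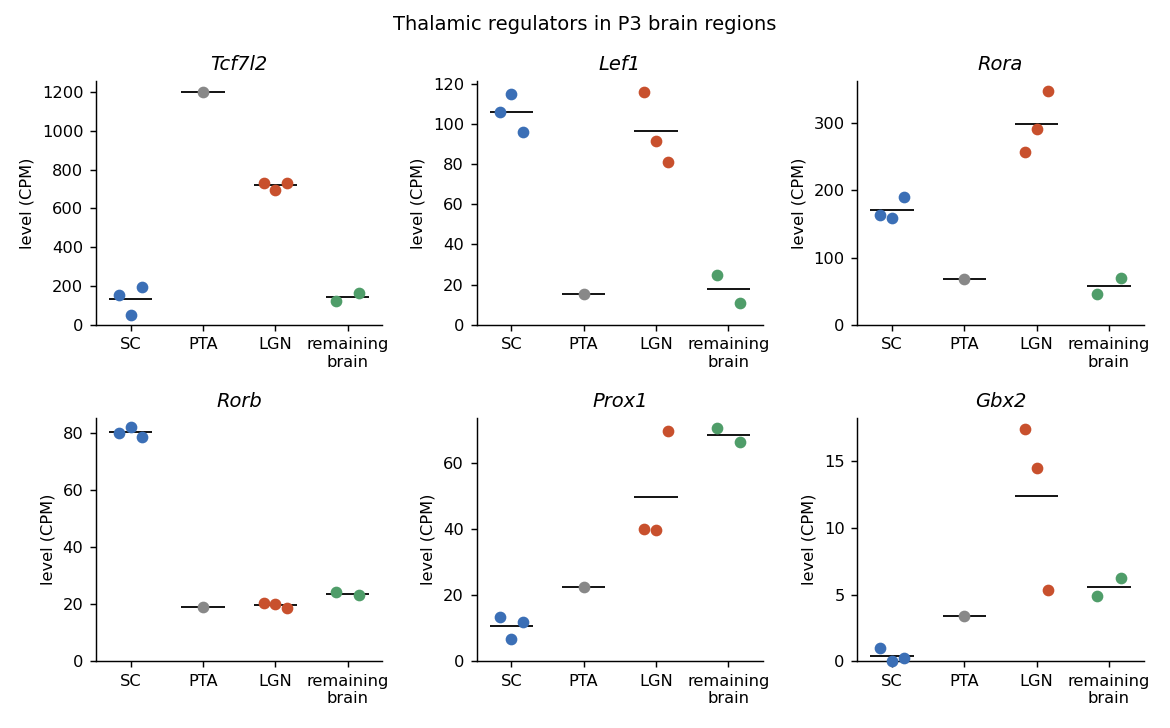
Level of each gene in every brain library (CPM, linear axes that start at 0), with a point per library and a line at the mean of the region. Tcf7l2 was at 695 to 731 CPM in LGN and 1200 CPM in PTA, Rorb was at 78.7 to 82.3 CPM in SC and 18.7 to 24.2 CPM elsewhere, and Gbx2 was near 0 in SC.

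Tcf7l2 was the most abundant of the 6 genes per length in every LGN library, at 528 to 576 TPM, and in PTA, at 776 TPM. Its level was 731, 695 and 731 CPM in LGN replicates 1 to 3 and 1200 CPM in the PTA library. SC replicates gave 155, 50.5 and 197 CPM, and the remaining brain gave 124 and 165 CPM. The LGN libraries were close to each other and none overlapped SC or the remaining brain, and SC replicate 2 was the lowest of the 9 brain libraries. Tcf7l2 was 5.35-fold higher in LGN than in SC (log2 fold change 2.42 ± 0.39, SE, adjusted p = 0.004) and 4.98-fold higher than in the remaining brain (2.32 ± 0.45, adjusted p = 0.0111). The second call was lost without either library of the remaining brain (2.53, adjusted p = 0.0606, without replicate 2, and 2.12, adjusted p = 0.0686, without replicate 1). SC and the remaining brain did not differ beyond their spread (log2 difference -0.10, 95% interval -1.04 to 0.83).

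Tcf7l2 is also known from oligodendrocyte precursors, whose markers moved with it in part. Of 13 oligodendrocyte-lineage genes, 6 were higher and none lower in LGN than in SC, among them Mag (9.74 against 3.62 CPM). Their summed level was 749 to 1230 CPM in LGN, 618 to 779 CPM in SC, 1020 CPM in PTA and 1120 and 1680 CPM in the remaining brain, and none of the 13 was at 0 in any brain library. LGN replicate 3 had a sum of 749 CPM and 731 CPM of Tcf7l2, and the libraries of the remaining brain, with sums of 1120 and 1680 CPM, had 124 and 165 CPM of Tcf7l2. The part of these cells in the Tcf7l2 level was not tested.

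**Figure D2:**
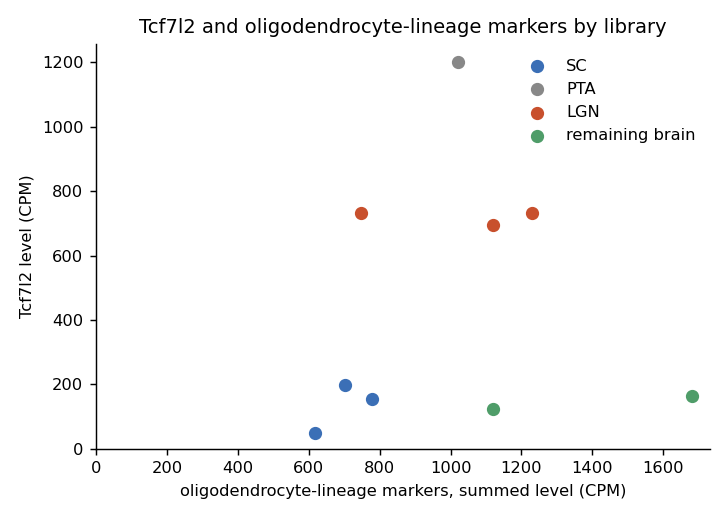
Tcf7l2 level against the summed level of 13 oligodendrocyte-lineage markers in the 9 brain libraries (both in CPM, linear axes from 0), with a point per library. The LGN libraries were at 695 to 731 CPM of Tcf7l2 with marker sums of 749 to 1230 CPM, and the remaining brain was at 124 and 165 CPM with sums of 1120 and 1680 CPM.

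The transcripts of Tcf7l2 fall into 16 that begin near the upstream start and 6 that begin 151.5 kb further in. The main internal transcript, Tcf7l2-007, codes for 299 residues and the main upstream one, Tcf7l2-006, for 459, from the coding lengths of the GENCODE annotation of GRCm38. As background, TCF forms that begin internally lack the amino-terminal region that binds β-catenin. Internal transcripts took 46.2%, 43.2% and 50.0% of the gene's estimated counts in LGN, 34.2% in PTA, 35.3% and 35.1% in the remaining brain, and 34.1%, 16.1% and 29.5% in SC. Every LGN library was thus above every other brain library, and the lowest share was in SC replicate 2, which also had the lowest Tcf7l2 level. In retina the median internal share was 0.305% in SN and 0.007% in the AP-positive fraction at P3. Per length the internal share was 59.9 ± 3.19% (SD, n = 3) in LGN and 39.3 ± 15.8% (n = 3) in SC. These shares are descriptions without a test, and transcripts of a gene share reads, so each is an estimate of the counting model.

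**Figure D3:**
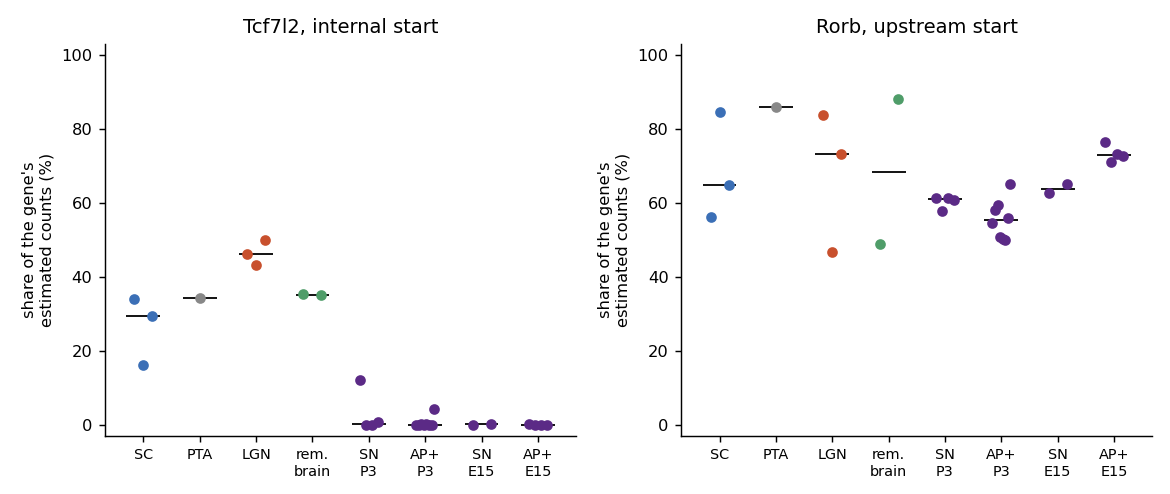
Share of each gene's estimated counts (%, 0 to 100) that fell on the internal start of Tcf7l2, left, and on the upstream start of Rorb, right, with a point per library and a line at the median. Tcf7l2 internal transcripts took 43.2 to 50.0% in LGN and at most 12.1% in any retinal library, while the Rorb share in brain regions scattered between 46.7 and 88.1%.

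Lef1, on chromosome 3 (131110471-131224356, plus strand), had a different regional pattern from Tcf7l2. It was at 106, 115 and 96 CPM in SC replicates 1 to 3 and at 116, 91.6 and 81.2 CPM in LGN. PTA had 15.3 CPM, and the remaining brain had 24.5 and 10.9 CPM. SC and LGN overlapped, and PTA, where Tcf7l2 was highest, lay within the low range of the remaining brain. Lef1 was 5.96-fold higher in SC (log2 2.58 ± 0.30, adjusted p = 0.00113) and 5.43-fold higher in LGN (2.44 ± 0.30, adjusted p = 0.000933) than in the remaining brain. Both calls were kept without replicate 1 of the remaining brain, at 3.27 and 3.13, and without replicate 2, at 2.11 and 1.97. Between LGN and SC the log2 difference was -0.13, with a 95% interval of -0.66 to 0.39. Lef1 also has a second start, 2.3 kb inside the first, whose coding transcript Lef1-002 gives 331 residues against 369 to 397 from the first. The first start took 77.2 to 84.6% of the gene's counts in SC and 77.3 to 91.1% in LGN, overlapping ranges.

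Other genes of the Wnt pathway were counted from a list of 28 (TCF/LEF relatives, co-repressors, feedback targets and secreted inhibitors), which leaves out Tcf7l2 and Lef1. In LGN against SC, 1 was higher and 7 were lower, and the list's median with both genes in was -0.18 on the log2 scale against -0.02 for all genes tested. Sp5 and Axin2, direct targets of β-catenin that rise with canonical signalling, were among the lower: Axin2 was at 20.1 to 27.3 CPM in LGN and 55.6 to 74.1 CPM in SC (log2 -1.46 ± 0.18), and Sp5 at 1.75 to 3.78 against 36.4 to 42.9 CPM (-3.78 ± 0.33). The co-repressor Tle3 was lower in LGN as well (30.1 against 91.7 CPM on average), whereas Tle1 was higher (86.3 against 31.6 CPM). In SC against the remaining brain, 5 of the 28 were higher and none lower, including Axin2 (1.85 ± 0.21) and Sp5 (2.84 ± 0.37), and in LGN against the remaining brain none was higher and 4 were lower. PTA, with the highest Tcf7l2, had 38.6 CPM of Axin2 and 10.3 CPM of Sp5, both between LGN and SC.

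Rora and Rorb, the receptors of the ROR family in this group, differed in opposite directions between LGN and SC. Rora, on chromosome 9 (68653786-69388246, plus strand), was at 257, 292 and 348 CPM in LGN replicates 1 to 3 and at 163, 159 and 191 CPM in SC. PTA had 68.5 CPM and the remaining brain 46.2 and 69.2 CPM. The order of the levels was LGN, SC, then PTA with the remaining brain, where LGN and SC did not overlap each other or the rest and PTA lay inside the range of the remaining brain. Rora was 1.75-fold higher in LGN than in SC (log2 0.81 ± 0.16, adjusted p = 0.0122), a call lost without SC replicate 2 (0.76, adjusted p = 0.0678). It was 5.18-fold higher in LGN (2.37 ± 0.20, adjusted p = 0.000122) and 2.96-fold higher in SC (1.56 ± 0.19, adjusted p = 0.0016) than in the remaining brain.

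Nearly all Rora counts fell on Rora-001, which codes for 523 residues and begins at the upstream start. Rora-002, of 467 residues, begins 635.9 kb further in and took 2.12%, 2.45% and 4.68% of the counts in LGN, 0.908%, 1.81% and 1.99% in SC, 0.679% in PTA and 0.077% and 0.628% in the remaining brain. Among the brain libraries its share was thus highest in the 3 of LGN, though it rested on 56.0 to 198.5 estimated counts there and on 17.2 to 46.2 in SC. In retina it was at most 0.817% in any P3 library and rested on no more than 0.005 estimated counts in either SN library of E15. The 4 AP-positive libraries of E15 gave 0%, 2.39%, 3.70% and 4.39%, the last 3 from 24.1, 31.8 and 39.9 estimated counts. Rora-002 is 2591 bases long and Rora-001 10878, so the share of Rora-002 per length was larger. Per length it was 8.4%, 9.4% and 17.0% in LGN replicates 1 to 3 and 3.6%, 6.9% and 7.5% in SC. The 4 AP-positive libraries of E15 gave 0%, 7.7%, 12.6% and 14.3% per length.

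Rorb gave the tightest regional difference of the 6 genes, with the smallest standard error in each brain comparison. It was at 80, 82.3 and 78.7 CPM in SC and at 20.6, 20.3 and 18.7 CPM in LGN. The PTA library had 19.1 CPM, next to 24.2 and 23.4 CPM for the remaining brain. SC stood apart from every other region, and the other 3 regions lay between 18.7 and 24.2 CPM. Rorb was 4.04-fold higher in SC than in LGN (log2 LGN minus SC -2.01 ± 0.10, adjusted p = 9.92e-06) and 3.37-fold higher in SC than in the remaining brain (1.75 ± 0.12, adjusted p = 3.76e-05). LGN and the remaining brain did not differ by the test (-0.26 ± 0.11, 95% interval -0.51 to -0.01 before adjustment, adjusted p = 0.18).

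Rorb-005, from the upstream start, and the transcripts from the downstream start, 110.1 kb away, code for 459 and up to 470 residues. The upstream start took 56.2%, 84.7% and 64.9% of the counts in SC replicates 1 to 3 and 83.8%, 46.7% and 73.4% in LGN, so the regions overlapped over most of their range. In retina the same share spread less: 57.7 to 61.3% in SN and 50.0 to 65.2% in the AP-positive fraction at P3, and 71.2 to 76.5% in the AP-positive fraction at E15. The AP-positive libraries of the 2 ages did not overlap in this share, which was not tested.

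Of 13 other genes of the ROR, REV-ERB and clock families tested in brain, none was higher and 1 was lower in LGN than in SC, the clock factor Npas2 (log2 -1.37 ± 0.26). Nr1d1, which encodes REV-ERBα, a repressor that competes with ROR receptors at shared sites, was higher in LGN (0.82 ± 0.16, adjusted p = 0.00952) and in SC (0.81 ± 0.16, adjusted p = 0.0148) than in the remaining brain, as was Rora. It was at 30.3 to 37.4 CPM in LGN, 30.1 to 36.1 CPM in SC, 18.3 and 20.3 CPM in the remaining brain and 11.2 CPM in PTA. Of 8 genes known as targets of RORα in Purkinje cells, none was higher and 4 were lower in LGN than in the remaining brain, and 5 of 9 cerebellar markers were lower in LGN too. The 4 were the calcium-binding protein gene Calb1 (33.5 against 102.4 CPM on average), the calcium channel gene Itpr1, and Car8 and Pcp2, which are also on the cerebellar list. In LGN against SC, none of the 8 was higher and 1 was lower. In SC against the remaining brain, 2 were higher and 2 lower.

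Prox1, on chromosome 1 (190118035-190170714, minus strand), separated SC from the other regions by being low. It was at 13.5, 6.85 and 12 CPM in SC and at 40.1, 39.7 and 69.7 CPM in LGN. The PTA library had 22.4 CPM, and the remaining brain had 70.5 and 66.2 CPM. SC overlapped no other region, and LGN replicate 3 alone reached the range of the remaining brain. Prox1 was 4.59-fold higher in LGN than in SC (log2 2.2 ± 0.28, adjusted p = 0.00124) and 6.30-fold lower in SC than in the remaining brain (-2.66 ± 0.30, adjusted p = 0.00105). LGN and the remaining brain gave a log2 difference of -0.46 (95% interval -1.10 to 0.19). All 3 Prox1 transcripts code for the same 737 residues.

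Of 15 other genes linked to Prox1 (partners, targets and genes of lineages that express it), 3 were higher and 3 lower in LGN than in SC. The higher included the nuclear receptor Nr2f1 (324 against 122 CPM on average) and Hes1, a Notch effector (9.09 against 3.70 CPM), and Nr5a2, a nuclear receptor that Prox1 binds, was among the lower (0.186 against 4.77 CPM). Against the remaining brain, Neurod1, which the dentate gyrus and cerebellar granule cells express with or beside Prox1, was lower in both SC (log2 -6.52 ± 0.49) and LGN (-4.60 ± 0.42). Neurod1 was at 39.6 and 124 CPM in the 2 libraries of the remaining brain, where Prox1 was nearly level (70.5 and 66.2 CPM).

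Gbx2, the shortest of the 6 loci (chromosome 1, 89927956-89931179, minus strand), was the least abundant in CPM. It was at 17.4, 14.5 and 5.34 CPM in LGN replicates 1 to 3 and at 1.03, 0 and 0.247 CPM in SC, the latter from 12, 0 and 3 estimated counts. PTA reached 3.40 CPM and the remaining brain 4.89 and 6.29 CPM. SC lay below all other regions, and LGN replicate 3 fell within the range of the remaining brain, so LGN and the remaining brain overlapped. Gbx2 was higher in LGN than in SC (log2 4.79 ± 0.73, adjusted p = 0.00298), with a 95% interval of 3.15 to 6.44. For LGN against SC it gave 6.44 without SC replicate 1 (adjusted p = 0.00213) and 4.27 without SC replicate 2. The highest adjusted p for Gbx2 there with 1 library left out was 0.0171 (edgeR). It was lower in SC than in the remaining brain (-3.65 ± 0.78, adjusted p = 0.024), a call lost without SC replicate 2 (-3.12, adjusted p = 0.0621), SC replicate 3 (-3.35, adjusted p = 0.085) or replicate 2 of the remaining brain (-3.45, adjusted p = 0.112). Without SC replicate 1, which held 12 estimated counts, it was -5.29 (adjusted p = 0.0118). LGN against the remaining brain did not pass (1.15 ± 0.63, adjusted p = 0.283).

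The annotation holds a spliced coding transcript of Gbx2, of 348 residues, and a transcript with a retained intron and no coding sequence. These transcripts overlap and share reads, so each share is an estimate of the counting model. The retained-intron transcript took 40.9%, 42.1% and 43.7% of the counts in LGN. Per length it took 54.7 to 57.6% there, more than the coding transcript (42.4 to 45.3%). In the remaining brain it took 0.138% in replicate 1 and 98.5% in replicate 2, so the level of the coding transcript there rested on replicate 1 (55.0 against 1.09 estimated counts). The LGN libraries held 105.6, 114.4 and 36.7 estimated counts of the coding transcript and PTA held 34.0. Coding Gbx2 counts in LGN thus exceeded those in SC (11.7, 0 and 1.71) in every library, while LGN replicate 3 was below replicate 1 of the remaining brain.

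Of 21 other genes tested of a list for thalamic nuclei, 11 were higher and 2 lower in LGN than in SC, and 11 were higher and 2 lower in LGN than in the remaining brain. With Gbx2 in the list, the medians were 0.72 and 1.11 on the log2 scale, against -0.02 for all genes tested in each. Ntng1 and Plekhg1 were higher in both comparisons (1.70 ± 0.19 and 1.06 ± 0.13 against SC), and the LIM homeobox gene Lhx2 and the ETS gene Etv1 were lower in both (-2.06 ± 0.15 and -1.76 ± 0.16 against SC). Slc6a4, the serotonin transporter that sensory relay neurons of the young thalamus carry, was at 55.9 to 109 CPM in LGN, with replicate 3 the lowest as for Gbx2, and at 0, 0.0965 and 15.1 CPM in SC. Markers of the prethalamus and the ventral LGN moved the same way: 8 of 10 were higher in LGN than in SC and 1 lower. Dlx1 of that list was at 35.1 to 39.9 CPM in LGN, 0 to 5.26 CPM in SC, 0 in PTA and 30.5 and 46.4 CPM in the remaining brain, and the summed level of the 10 was 518 to 682 CPM in LGN and 666 to 733 CPM in SC, where Gad1 alone averaged 524 CPM. The part of prethalamic cells in the LGN levels of Prox1, Gbx2 or Tcf7l2 was not tested.

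Of 20 genes listed for the excitability of thalamic neurons, which include known targets of Tcf7l2, 5 were higher and 3 lower in LGN than in SC. Grid2ip had the smallest adjusted p among the higher (23.2 against 2.32 CPM on average, log2 3.32 ± 0.44), followed by the potassium channel gene Kcnk3 (0.62 ± 0.14). The list's median of 0.01 was close to that of all genes.

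**Figure D4:**
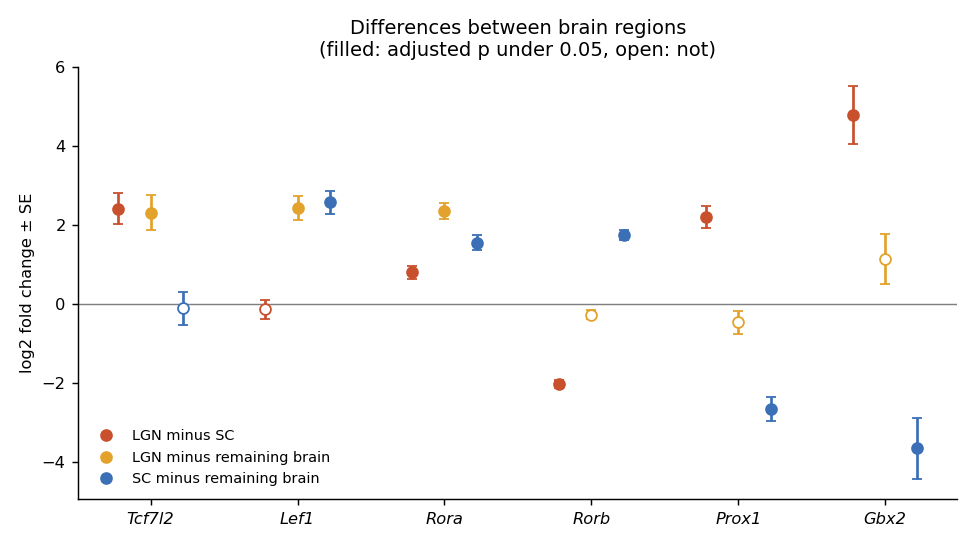
Log2 fold change with its standard error (bars) for each gene in the 3 comparisons between brain regions, where filled points have adjusted p under 0.05. Tcf7l2 was set apart in LGN (2.42 and 2.32), Rorb in SC (-2.01 and 1.75), and Lef1 in both against the remaining brain (2.44 and 2.58).

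Per length, the order of the 6 genes differed between regions. In LGN, Tcf7l2 (528 to 576 TPM) was followed by Lef1 (51.3 to 75.5 TPM) and Rora (52.9 to 76.5 TPM), which overlapped, then by Gbx2 (6.87 to 22.3 TPM) and Prox1 (10.4 to 18.8 TPM), which overlapped too, and Rorb was lowest (4.22 to 4.80 TPM). In SC, Tcf7l2 (31.0 to 148 TPM) and Lef1 (63.9 to 77.1 TPM) overlapped, Rora (34.1 to 39.6 TPM) overlapped Tcf7l2 through SC replicate 2, and Rorb was at 17.6 to 19.3 TPM, Prox1 at 1.83 to 3.70 TPM and Gbx2 at 0 to 1.04 TPM. In PTA, Tcf7l2 was at 776 TPM, and Rora (13.1 TPM), Lef1 (9.53 TPM), Prox1 (5.61 TPM), Rorb (4.04 TPM) and Gbx2 (3.16 TPM) were far lower. In the remaining brain Tcf7l2 was again first (101 and 120 TPM), and Prox1 was second in each library (20.8 and 18 TPM), followed by Lef1 (19.3 TPM) in replicate 1 and by Rora (15 TPM) in replicate 2.

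Across the 9 brain libraries, the log2(CPM + 1) levels of Rora and Lef1 went together (r = 0.83), as did those of Prox1 and Gbx2 (0.80). Rorb went against Gbx2 (-0.88), Prox1 (-0.85) and Tcf7l2 (-0.72). These r values are descriptions over 9 libraries that fall into 4 regions, so they restate the regional differences. By the same measure over 10477 genes, the genes most like Tcf7l2 were Paqr4 (0.973), Metrn (0.953) and Cybrd1 (0.947). Those most like Rorb were Bnc2 (0.982), which was at 17.4 CPM in SC on average and at or under 1.63 CPM elsewhere, Pdzrn4 (0.976) and Nkd2 (0.968). Those most like Rora were Plac9b (0.977), Cpne9 (0.976) and Nmnat2 (0.965), and those most like Lef1 were Atp1b2 (0.975), Cdh7 (0.970) and Neu1 (0.967). Prox1 was most like Hmgcs1 (0.986), Enc1 (0.970) and Dync1i1 (0.969), and Gbx2 like Fam185a (0.965), Rap2a (0.964) and Ankrd40 (0.964).

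In retina at P3, all 6 genes differed between the AP-positive fraction and SN, in a comparison where 55% of 16954 genes were called. Rora was higher in the AP-positive fraction and the other 5 were lower, and 27.3% of all genes were called higher and 27.7% lower. Rora was at 151 to 295 CPM (median 179) in the 8 AP-positive libraries and at 111 to 127 CPM in the 4 SN libraries, with no overlap (log2 0.72 ± 0.08, adjusted p = 4.73e-06). Both Brn3a HET libraries, at 294 and 295 CPM, were well above the other 6, which lay between 151 and 192 CPM. Rorb was at 221 to 630 CPM against 699 to 856 CPM in SN (-1.02 ± 0.11, adjusted p = 3.28e-06) and Prox1 at 22.6 to 130 CPM against 156 to 197 CPM (-1.55 ± 0.17, adjusted p = 5.55e-06). For both genes the AP-positive libraries stayed below SN and fell into ranges that did not overlap by locus: Rorb was at 221 to 350 CPM in the 4 Brn3a libraries and 442 to 630 CPM in the 4 Brn3b libraries, and Prox1 at 22.6 to 55 and 70.2 to 130 CPM, differences that were not tested.

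**Figure D5:**
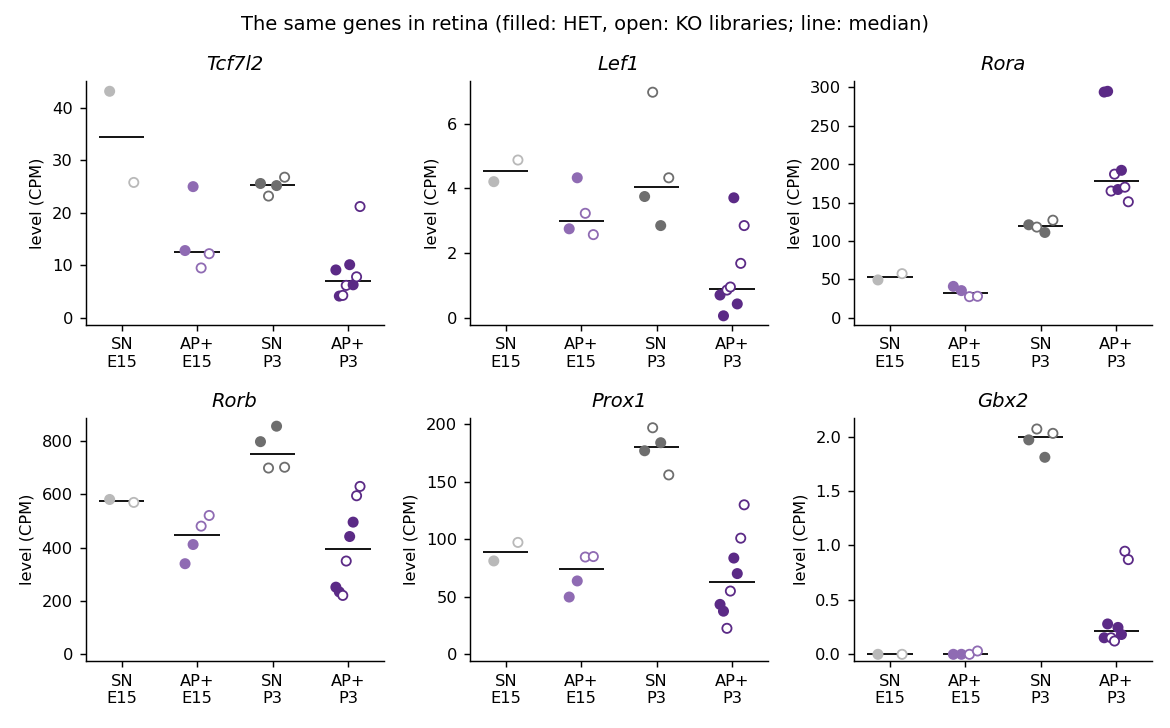
Level of each gene in the retinal libraries (CPM, linear axes), by fraction (SN, supernatant; AP+, AP-positive) and age, with filled points for HET, open points for KO and a line at the median. Rora in the AP-positive fraction was at 27.3 to 40.7 CPM at E15 and 151 to 295 CPM at P3, and changed from below SN to above it.

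The remaining 3 genes were low in retina. Tcf7l2 was at 4.11 to 21.2 CPM (median 7.03) in the AP-positive fraction at P3 and at 23.2 to 26.8 CPM in SN (-1.66 ± 0.28, adjusted p = 0.000176), and Lef1 at 0.0559 to 3.71 CPM against 2.85 to 6.98 CPM (-1.99 ± 0.50, adjusted p = 0.00382), with overlap. With 1 library left out at a time, the value for Lef1 ran from -2.69, without replicate 1 of Brn3a HET, to -1.73. Gbx2 was at 0.122 to 0.947 CPM against 1.81 to 2.07 CPM (-2.82 ± 0.38, adjusted p = 5.48e-05). By the counting model, the retained-intron transcript took 75.9 to 94.8% of the Gbx2 counts in SN at P3. In the AP-positive fraction at P3 it took 0 to 99.9%, from few counts. Which kind of Gbx2 RNA differed was not tested. The P3 comparison averages Brn3a and Brn3b genotypes. In the Brn3b libraries alone, a fit added after seeing the data, Rora (0.51 ± 0.12, adjusted p = 0.0282), Rorb (-0.54 ± 0.12, adjusted p = 0.0205) and Prox1 (-0.85 ± 0.15, adjusted p = 0.00677) passed, and Tcf7l2 (-1.25, adjusted p = 0.0707), Lef1 (-0.73, adjusted p = 0.482) and Gbx2 (-2.11, adjusted p = 0.0805) did not. In CPM, the retina at P3 thus held less Tcf7l2, Lef1 and Gbx2 than LGN did and more Rorb than SC did. These values were scaled separately in brain and retina and were not tested across the sequencing formats.

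At E15, 2 of the 6 genes passed, against 26.3% of all genes, and both were lower in the AP-positive fraction, as were 13% of all genes, with 13.4% higher. Rora was at 27.3 to 40.7 CPM in 4 AP-positive libraries and 49.1 and 57.3 CPM in SN (-0.72 ± 0.11, adjusted p = 0.000478), and Tcf7l2 at 9.48 to 25 CPM against 43.2 and 25.8 CPM (-1.27 ± 0.39, adjusted p = 0.0294). Neither passed when the E15 groups were fitted alone (-0.66, adjusted p = 0.0575, and -1.22, adjusted p = 0.0666), and Tcf7l2 also failed without Brn3b HET replicate 1 (adjusted p = 0.0988), Brn3b KO replicate 1 (0.093) or the HET SN library (0.36). Rorb was at 340 to 521 CPM against 581 and 570 CPM (-0.41 ± 0.15, adjusted p = 0.061) and passed with DESeq2 (-0.40, adjusted p = 0.0266). Prox1 was at 49.8 to 85 CPM against 81.2 and 97.3 CPM, with overlap. Gbx2 had 1 estimated count in all 6 libraries of that age together.

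The difference between fractions itself differed between the ages for 3 genes, where 17.5% of all genes did (9.74% higher at P3 and 7.77% lower). For Rora it was higher at P3 than at E15 by 1.44 ± 0.13 on the log2 scale (adjusted p = 4.59e-05). Of the 8 targets of RORα in Purkinje cells, 5 were higher by this measure and none lower. For Prox1 the log2 change was -1.18 ± 0.31 (adjusted p = 0.0197) and for Rorb -0.61 ± 0.19 (adjusted p = 0.0401). The P3 side includes the Brn3a genotypes, which have no counterpart among the E15 groups, so age and genotype are mixed in these values. In the Brn3b libraries alone, Rora gave 1.23 ± 0.17 (adjusted p = 0.0178), whereas Prox1 (-0.48, 95% interval -0.97 to 0, adjusted p = 0.271) and Rorb (-0.13, -0.51 to 0.25, adjusted p = 0.734) did not pass. In the fit with all retinal libraries and without the HET SN library of E15, Prox1 (-1.10, adjusted p = 0.109) and Rorb (-0.66, adjusted p = 0.105) did not pass. Rorb was also lost without the KO SN library of E15 (-0.64, adjusted p = 0.0749), replicate 2 of Brn3b HET at E15 (-0.58, adjusted p = 0.0578), replicate 2 of Brn3b KO at E15 (-0.63, adjusted p = 0.0602) or replicate 1 of Brn3b HET at P3 (-0.60, adjusted p = 0.0584).

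Markers of other retinal cells also differed between the fractions. All 8 microglial markers were higher in the AP-positive fraction at both ages: their summed level was 875 to 3240 CPM against 8.08 to 24.2 CPM in SN at P3, and 607 to 895 CPM against 9.04 and 9.47 CPM at E15, and no marker was at 0 in any AP-positive library. Of 9 markers of horizontal and amacrine cells, which include cells with Prox1, 4 were lower in the AP-positive fraction at each age and none higher, among them Tfap2b and Gad1. Their summed level was 113 to 898 CPM in the AP-positive fraction and 775 to 914 CPM in SN at P3, and the 2 Brn3b KO libraries with the highest sums (898 and 772 CPM) also had the highest Prox1 (101 and 130 CPM) and Rorb (595 and 630 CPM) of the 8. None of the 9 was at 0 in any retinal library. In the interaction with age, 1 of the 8 microglial markers was called, higher at P3, and none of the 9 horizontal and amacrine markers. The part of either cell type in the levels of the 6 genes was not tested. Among all genes tested, 27.3% were called higher and 27.7% lower in the AP-positive fraction at P3. At E15 the shares were 13.4% and 13%. Of the genes listed with the members, 3 of 27 Wnt pathway genes were higher and 17 lower in the AP-positive fraction at P3, as were 2 and 8 of 14 ROR, REV-ERB and clock genes and 1 and 9 of 15 genes linked to Prox1. At E15 the counts were 6 higher and 4 lower of 27, 2 and 3 of 14, and 2 and 2 of 15. Of the 8 targets of RORα in Purkinje cells, 3 were higher in the AP-positive fraction and none lower at P3. At E15 none of them was higher and 2 were lower.

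Between Brn3b KO and HET in the AP-positive fraction, none of the 6 genes passed at P3 (3.41% of 16673 genes called, 0.264% higher and 3.15% lower) or at E15 (1.85%, 0.666% higher and 1.18% lower). None gave a difference between the ages (0.192%, 0.006% higher and 0.186% lower). At an unadjusted p under 0.05, 1 gene would pass at P3 (Gbx2, at or under 0.947 CPM) and 1 at E15 (Rora), and with DESeq2 none and 1 (Rora, -0.46, adjusted p = 0.0451). By edgeR, Rora at E15 was not called: it was at 27.3 and 27.8 CPM in KO and 40.7 and 35.2 CPM in HET (-0.46 ± 0.13, 95% interval -0.76 to -0.17, adjusted p = 0.142). Rorb and Prox1 did not pass at either age, with log2 differences (KO minus HET) for Rorb of 0.39 (95% interval -0.03 to 0.82) at P3 and 0.41 (-0.01 to 0.84) at E15, and for Prox1 of 0.59 (-0.12 to 1.31) and 0.58 (-0.14 to 1.3). At P3, 7 of 8 microglial markers were lower in KO, and none of 9 horizontal and amacrine markers passed.

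Between P3 and E15 in the Brn3b HET AP-positive fraction, 28.8% of genes differed and Rora and Gbx2 were called higher at P3. Rora was at 167 and 192 CPM at P3 and 40.7 and 35.2 CPM at E15, a 4.75-fold difference (log2 2.25 ± 0.14, adjusted p = 2.89e-05). In SN, Rora was at 111 to 127 CPM at P3 and 49.1 and 57.3 CPM at E15, which was not tested. Gbx2 had 9 and 6 estimated counts at P3 and 0 in both E15 libraries (edgeR, adjusted p = 0.0259). Its mean at P3 was 4.09-fold above a floor of 3 counts over the E15 group, a value that leaves out the counting error at P3. The call was lost with any 1 of the 4 libraries left out. All 4 of these Gbx2 counts lie under the minimum count of the filter. Gbx2 was in the fit because of other libraries, with 35 and 33 estimated counts in Brn3b KO at P3. No change of Gbx2 with age is therefore concluded from this call. Of 14 other genes of the ROR, REV-ERB and clock list, 7 were higher at P3 and none lower, where 16.6% of all genes were called higher and 12.3% lower. They included Nr1d1 (1.3 ± 0.16), Npas2 (2.10 ± 0.32), Nr1d2 (1.65 ± 0.27). Of the 8 targets of RORα in Purkinje cells, 5 were higher at P3 and none lower. That list's median was 2.23 on the log2 scale, against 0.01 for all genes tested. All 8 microglial markers, 7 of 9 endothelial and mural markers and 5 of 9 horizontal and amacrine markers were higher at P3 as well, and 2 of the last 9 were lower. Summed levels at P3 and E15 were 1890 and 2290 against 657 and 895 CPM for microglia, 323 and 146 against 87.9 and 219 CPM for endothelial and mural cells, which overlapped, and 464 and 495 against 263 and 196 CPM for horizontal and amacrine cells. The part of these cells in the Rora difference was not tested. Tcf7l2, Lef1, Rorb and Prox1 did not pass. The log2 differences were 0.33 (95% interval -0.09 to 0.75) for Rorb and 0.45 (-0.27 to 1.16) for Prox1.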

How the data were processed

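RNA was measured in 27 libraries of mouse brain and retina. The deposited values are estimated counts per transcript, not normalized, for 88198 transcripts on build GRCm38. Tools listed in the submitters' processing notes are eXpress 1.3.1, Bowtie2 2.2.1 and Trimmomatic 0.32, and the build listed is GRCm38.p3. Whether counting used the strand of the dUTP libraries is not given in the sources used here. The deposited transcript length served for TPM, and the deposited GC percent was not used.

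Counts were summed per gene, rounded and tested with edgeR 4.0.16 (R 4.3.3): TMM, filterByExpr with a minimum count of 10, the quasi-likelihood F-test and Benjamini-Hochberg adjustment over all genes tested, in fits of 9 brain, 18 retinal or 12 AP-positive libraries (5, 10 and 6 residual degrees of freedom). Groups follow the titles, except that SN libraries of an age were pooled over genotypes. PTA, with 1 library, was not tested. Alternatives were DESeq2 1.42.0, RLE scaling, no filter, only the groups compared, a replicate block, leaving out libraries and, added after seeing the data, the Brn3b libraries only for the retinal fractions. Folds are given for called genes, and for others in brain or, in retina, with at least 10 CPM in a group.

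The genes named are the 6 members, the 3 genes most like each over the brain libraries among those with a mean of at least 10 CPM in a region, up to 4 genes per list by smallest adjusted p, and markers that move with a member. Some genes that this rule names are not reported here. The 16 gene lists hold Wnt, thalamic, ROR, Prox1 and cell type genes. The members and lists were chosen with earlier results of these data known. The scripts were tested on simulated data. Depth per library bounds the precision of genes with few counts, such as Gbx2.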

Additional observations from a re-analysis of the deposited data

Results flagged for a closer look

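In the retina, the difference between the AP-positive fraction and SN differed between P3 and E15 for 3 of the 6 genes by an interaction test (edgeR). Of all 16954 genes tested, 17.5% were called in it, 9.74% higher and 7.77% lower. The log2 value, P3 minus E15, was 1.44 for Rora (adjusted p = 4.59e-05), which lay above SN at P3 in 8 of 8 libraries and below it at E15 in 4 of 4. It was -0.61 for Rorb (adjusted p = 0.0401) and -1.18 for Prox1 (adjusted p = 0.0197). The P3 side averages Brn3a and Brn3b genotypes and the E15 side holds Brn3b alone: with the Brn3b libraries only, chosen after seeing the data, the values were 1.23 for Rora (adjusted p = 0.0178), -0.13 for Rorb (adjusted p = 0.734) and -0.48 for Prox1 (adjusted p = 0.271). SN at E15 is 2 libraries, and without the HET one the values for Rorb and Prox1 did not pass. No group of 4 to 10 replicate libraries exists among the study's groups, so no single library could be set against its group by a gap test.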

How the results depend on the processing

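In brain, DESeq2, RLE scaling, no filter, only the groups compared and the replicate block changed no call of the 6 genes. Leaving out 1 library gave 770 to 1462 genes called for LGN against SC, 859 to 1548 for LGN against the remaining brain and 467 to 1066 for SC against the remaining brain. Tcf7l2 in SC against the remaining brain, which was not called, ranged from -0.49 to 0.29. In retina, the range was 8464 to 9581 genes for AP-positive against SN at P3, 686 to 4993 at E15 (1 to 3 of the 6 genes) and 1284 to 3275 for the interaction (1 to 3 of the 6). For Brn3b KO against HET it was 1 to 549 at P3, 83 to 338 at E15 and 1 to 71 for the interaction, and Tcf7l2 at P3 ranged from -0.05 to 1.37. For P3 against E15 it was 2849 to 3997 (1 of the 6 in each fit).

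With only the groups compared, AP-positive against SN at E15 gave 866 genes in place of 4467 and 0 of the 6, Brn3b KO against HET gave 0 in place of 569 at P3, 22 in place of 308 at E15 and 6 in place of 32 for the interaction, and P3 against E15 gave 2949 in place of 4809 and 1 of the 6. DESeq2 gave 1549, 807 (1 of the 6) and 347 for the 3 Brn3b comparisons, and no filter gave 101 for the interaction. With the Brn3b libraries only, chosen after seeing the data, AP-positive against SN at P3 gave 1836 genes in place of 9325 and 3 of the 6, and the interaction gave 147 in place of 2969 and 1 of the 6. Fewer libraries enter those fits; for DESeq2 and the filter the cause was not tested.

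Replicate numbers in the titles may pair libraries, but no label says so. Same-numbered SC and LGN libraries deviated together only in part (r = 0.20, 0.07 and 0.22), so no pairing was assumed. AP-positive and SN libraries of a genotype and number may come from the same separation of cells, a pairing that was not examined. With the replicate block, genes called were 2316 for LGN against SC, 378 for Brn3b KO against HET at P3 and 12 for its interaction, and Rorb passed in AP-positive against SN at E15 (-0.41, adjusted p = 0.0377). For P3 against E15, same-numbered libraries deviated in opposite directions (r = -0.11), and crossed numbers, chosen after seeing the data, gave 4226 genes against 4642 with the numbers as titled. Shares per length instead of per count moved by more than the SD of a region for the Tcf7l2 starts (59.9% internal in LGN). They did so for Rora-002 in LGN, SC and the remaining brain, and for Lef1 in SC alone. The same held for Gbx2 in LGN, where the retained-intron share was 42.2 ± 1.44% by count and 56.1% per length. PTA has no SD. Gbx2, with 0 to 12 estimated counts per SC library, is limited by depth.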
